A study of Mus musculus with 6 samples.

Results

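Described here are 9 genes of the p53 pathway, Trp53, Mdm2, Ccng1, Bax, Phlda3, Zmat3, Trp53inp1, Bbc3 and Pmaip1, in endothelial cells of the embryonic mouse heart that had lost both, 1 or no copies of the Notch ligand gene Dll4. They were chosen by symbol, all 9 were among the 41214 genes of the expected-count table, and all 9 were among the 10952 that passed the filter on low counts. The cells were sorted as CD31+ and GFP+ from E14.5 hearts, after tamoxifen at E13.5, and there were 2 libraries per group. KO embryos carried Dll4 flox alleles from both parents (genotype label Dll4-/-), het embryos carried the flox allele from the Cre-transgenic parent only (Dll4+/-), and wt embryos (WT) came from Pdgfb-iCreERT2-IRES-EGFP mice mated with wildtype females. Sorted cells of all 3 groups had thus received tamoxifen and carried this inducible Cre, which the Pdgfb transgene expresses in endothelial cells, so deletion was limited to Cre-active cells and to the 1 day before collection. Several litters were used, but the labels do not say how many hearts or which litters entered a library, so p-values measure the spread between these libraries, which may be partly technical.

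p53, the product of Trp53, is a transcription factor that is held at a low level by the ubiquitin ligase Mdm2 and is stabilised by DNA damage, disturbed ribosome production and oncogene activity, including high Myc. Once stabilised it activates genes that restore its own restraint (Mdm2, Ccng1), slow growth and the cell cycle (Phlda3, Cdkn1a), or lead to mitochondrial apoptosis (Bax, Bbc3, Pmaip1). Its activity is set mainly at the protein level, so the RNA of its target genes is the usual readout in expression data.

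Myc is the gene against which the pathway was read. In CPM (counts per 1000000, with library sizes scaled by TMM), it had 152 and 161 in KO, 115 and 122 in het, and 60.4 and 56.3 in wt. It rose 2.68-fold in KO against wt and 2.03-fold in het against wt (edgeR adjusted p = 7.07e-08 and 0.00113), but without wt replicate 4 the difference between het and wt missed the threshold (adjusted p = 0.0859). The Myc difference between KO and het was called in 11 of 15 other settings (log2 fold changes from 0.37 to 0.78). Dll4 itself stood at 19.4 and 13.7 CPM in KO, 81.2 and 85.9 CPM in het, and 196 and 183 CPM in wt, in the order of the labels. Its difference between het and wt also missed the threshold without wt replicate 4 (log2 fold change -1.13).

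Totals were 4988014 and 6501798 counts in KO, 1537908 and 3165552 in het, and 1732136 and 2521534 in wt. The KO libraries also differed in makeup. Lars2, the mitochondrial leucyl-tRNA synthetase gene, took 0.0572% and 0.0611% of KO counts and between 16.3% and 17.1% of het and wt counts. Genotype and this difference in makeup cannot be told apart. Among 10 endothelial markers the summed level was 5642 to 5883 CPM in KO, 6339 to 6715 CPM in het and 6741 to 7074 CPM in wt. Markers of other cells were low, with 12 cardiomyocyte genes summing to 49.2 to 56.6 CPM in KO, 180 to 236 CPM in het and 104 to 120.3 CPM in wt, and 10 macrophage genes to 9.50 to 32.9, 71.2 to 256 and 28.3 to 88.0 CPM in the same groups. For 12 mural and fibroblast genes the sums were 129 to 235 CPM in KO, 298 to 396 in het and 128 to 216 in wt, for 7 erythroid genes 182 to 234, 118 to 378 and 144 to 416, and for 6 epicardial genes 73.0 to 77.7, 105 to 122 and 109 in both wt libraries. In all of these lists, 1 erythroid gene alone was at 0 in all 6 libraries. A list of 16 genes of the dissociation response summed to 1466 to 1481 CPM in KO, 1757 to 2315 CPM in het and 1340 to 1551 CPM in wt. The part of these cells and of handling in the results below was not tested. In these bulk libraries fewer expressing cells and less RNA per cell cannot be told apart.

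RefSeq promoter windows, 250 bases before to 50 bases after the start on build GRCm38.p6, were found for 6 of the 9 genes. The decamer from which p53 response elements are built (searched by its consensus, which reads the same on both strands, with no mismatch) occurred in the windows of 4 of these genes, and in 8.36% of all 32851 windows. The E-box CACGTG, to which Myc and Max bind, occurred in the windows of Trp53, Bax and Bbc3, and in 7.15% of all windows. Bbc3 had several windows, and only 1 of them held CACGTG. The matches are thus counted per gene and the shares per window, which are not on the same scale. The windows are shown for the 4 genes with a decamer and for Phlda3, which changed between the groups. They lie at chr11:69580109-69580408 (plus strand), chr10:117710709-117711008 (minus), chr11:40755237-40755536 (minus), chr7:45466849-45467148 (minus) and chr1:135765835-135766134 (plus). Each is written 5′ to 3′ on the gene's strand, and capitals mark the decamer and CACGTG, which do not overlap.
Trp53: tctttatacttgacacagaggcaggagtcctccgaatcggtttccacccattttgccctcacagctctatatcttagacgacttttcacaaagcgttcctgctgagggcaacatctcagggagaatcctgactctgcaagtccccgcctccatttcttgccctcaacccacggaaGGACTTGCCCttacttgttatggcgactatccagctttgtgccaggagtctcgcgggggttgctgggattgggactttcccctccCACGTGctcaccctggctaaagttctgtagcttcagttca
Mdm2: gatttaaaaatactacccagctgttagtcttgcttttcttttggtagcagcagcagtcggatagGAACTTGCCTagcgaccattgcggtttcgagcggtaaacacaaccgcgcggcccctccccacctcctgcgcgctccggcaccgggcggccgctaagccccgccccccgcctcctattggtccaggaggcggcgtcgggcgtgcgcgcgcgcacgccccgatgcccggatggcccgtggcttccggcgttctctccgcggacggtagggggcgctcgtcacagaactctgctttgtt
Ccng1: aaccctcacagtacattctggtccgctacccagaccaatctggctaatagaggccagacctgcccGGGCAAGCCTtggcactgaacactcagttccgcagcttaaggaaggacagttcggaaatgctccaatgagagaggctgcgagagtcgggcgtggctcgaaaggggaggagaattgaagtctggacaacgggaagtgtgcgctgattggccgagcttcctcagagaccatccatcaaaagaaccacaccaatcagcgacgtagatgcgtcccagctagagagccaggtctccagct
Bax: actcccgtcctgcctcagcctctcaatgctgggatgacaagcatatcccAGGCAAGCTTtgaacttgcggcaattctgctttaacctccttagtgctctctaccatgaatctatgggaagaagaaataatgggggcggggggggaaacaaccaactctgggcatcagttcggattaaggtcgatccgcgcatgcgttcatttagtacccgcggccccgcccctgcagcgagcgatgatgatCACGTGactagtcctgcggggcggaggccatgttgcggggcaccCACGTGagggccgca
Phlda3: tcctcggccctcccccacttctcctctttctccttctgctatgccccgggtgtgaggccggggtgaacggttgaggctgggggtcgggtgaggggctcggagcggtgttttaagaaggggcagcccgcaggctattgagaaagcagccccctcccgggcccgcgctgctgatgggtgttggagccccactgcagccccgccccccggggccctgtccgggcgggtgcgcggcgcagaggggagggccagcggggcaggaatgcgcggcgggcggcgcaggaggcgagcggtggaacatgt
The decamer begins 75 bases before the start in Trp53, 186 before it in Mdm2, 185 before it in Ccng1 and 201 before it in Bax. No decamer and no CACGTG was found in the Phlda3 window. These are matches of letters and not shown binding sites, and elements outside the window, such as those known in the first intron of Mdm2, were not searched.

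Loss of both Dll4 copies, with Myc 2.68-fold higher, came with no called rise among the 9 genes. Against wt, 2 of the 9 genes fell in KO, Zmat3 and Phlda3, and none rose, where 32.0% of the 10952 genes tested were called (14.7% higher and 17.3% lower). The median log2 fold change of the 9 genes was -0.04, and that of all tested genes -0.02. Both KO libraries lay above both wt libraries in 3 of the 9 genes and below them in 3, shares that stood at 33.2% and 34.5% over all tested genes. Among the higher genes Pmaip1 was nearly tied, at 2.54 CPM in KO replicate 2 against 2.53 CPM in wt replicate 5. The called share of the 9 genes, 22.2%, rests on 2 calls, and its difference from the 32.0% of all genes was not tested. With trends of GC content and transcript length removed, 3 were called, and Bax was the 1 higher gene. With scaling by library size only, which moved the median of all genes to 0.35, 5 genes were called, and Trp53, Mdm2 and Ccng1 were the 3 higher ones. Over all 10952 tested genes this setting called 3878 higher and 1034 lower.

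**Figure D1:**
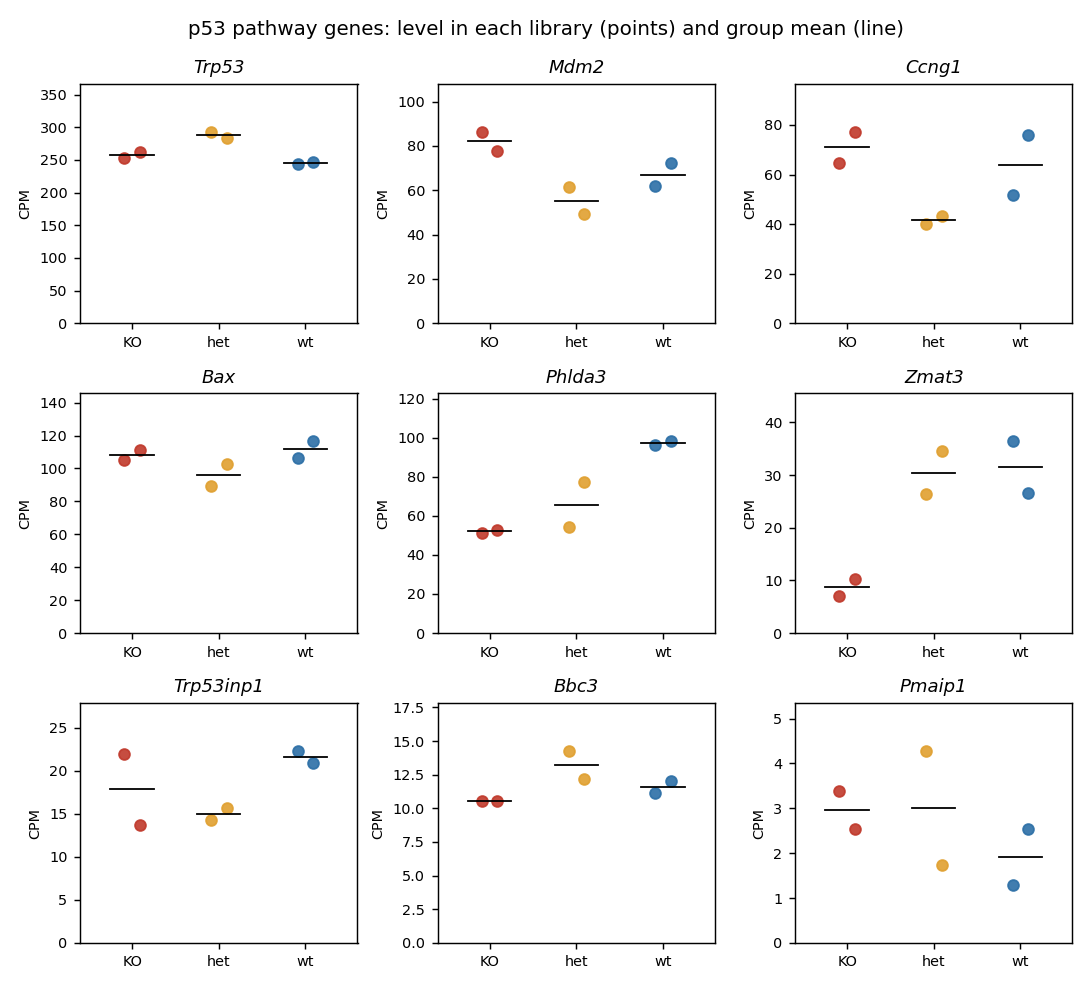
Level of each of the 9 genes in CPM (vertical axes, each starting at 0) in the 2 libraries of KO, het and wt (points), with the group mean (line). Zmat3 lies at 7.01 and 10.3 CPM in KO, below the 4 other libraries, and Phlda3 falls to 51.2 and 52.9 CPM in KO, against 96.3 and 98.1 CPM in wt.

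Trp53 (ENSMUSG00000059552, chromosome 11 from 69580359 to 69591873, GRCm38) had 252 and 262 CPM in KO, 293 and 284 CPM in het, and 244 and 246 CPM in wt. The het libraries were the highest and the groups did not overlap, but they spanned a narrow range. KO averaged 257 ± 6.98 CPM and wt 245 ± 1.82 CPM (SD, n = 2 each), a log2 fold change of 0.07 ± 0.10 (SE) with a 95% interval from -0.14 to 0.28 and edgeR adjusted p = 0.633. For het against wt it was 0.24 ± 0.10, with an unadjusted p of 0.0317 and edgeR adjusted p = 0.540. The processed pseudogene Trp53-ps held 0 counts in all 6 libraries. Wrap53, a telomerase and Cajal body factor that lies 104 bases from Trp53 on the other strand, is described with the regulators.

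Mdm2 (ENSMUSG00000020184, chromosome 10 from 117688875 to 117710758), the ligase that marks p53 for degradation and is itself a p53 target, had 86.5 and 77.9 CPM in KO, 61.2 and 49.2 CPM in het, and 62.1 and 72.1 CPM in wt. KO was the highest group and het the lowest, with no overlap between het and wt. Against wt the log2 fold change in KO was 0.30 ± 0.16 (95% interval -0.03 to 0.63, edgeR adjusted p = 0.155). Against het, Mdm2 rose in KO by 0.60 ± 0.16 on the log2 scale, 1.52-fold (edgeR adjusted p = 0.00719). That call was lost without KO replicate 1 (adjusted p = 0.0598) and without het replicate 3 (adjusted p = 0.130).

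Ccng1 (ENSMUSG00000020326, chromosome 11 from 40748552 to 40755311) encodes cyclin G1, which recruits phosphatase PP2A to Mdm2. It had 64.8 and 77.4 CPM in KO, 39.9 and 43.3 CPM in het, and 51.8 and 75.9 CPM in wt. The KO and wt libraries overlapped, and the het libraries lay below all others. Ccng1 rose in KO against het by 0.76 ± 0.19 on the log2 scale, 1.69-fold (edgeR adjusted p = 0.00358), a call kept in all 15 other settings. Against wt the log2 fold change was 0.17 ± 0.18 in KO (95% interval -0.20 to 0.55, edgeR adjusted p = 0.494) and -0.58 ± 0.20 in het (edgeR adjusted p = 0.378).

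Zmat3 (ENSMUSG00000027663, chromosome 3 from 32334792 to 32366014), a zinc-finger RNA-binding protein induced by p53, gave the largest difference of the 9. It had 7.01 and 10.3 CPM in KO, 26.4 and 34.5 CPM in het, and 36.4 and 26.6 CPM in wt, from 54 and 61 counts in KO, 37 and 99 in het, and 85 and 42 in wt. KO lay below every other library, and het and wt overlapped. Zmat3 fell 3.70-fold in KO against wt (log2 fold change -1.89 ± 0.28, edgeR adjusted p = 2.10e-05) and 3.60-fold against het (-1.85 ± 0.28, edgeR adjusted p = 2.77e-05). Both calls held in all 15 other settings, with log2 fold changes from -2.17 to -1.53 against wt. In het against wt the value was -0.04 ± 0.27 (95% interval -0.60 to 0.53). Its annotated exons span 11435 bases, longer than those of 93.0% of tested genes, and with trends of GC content and transcript length removed the log2 fold change against wt was -1.60.

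Phlda3 (ENSMUSG00000041801, chromosome 1 from 135766119 to 135769136) encodes a pleckstrin-homology protein that competes with Akt for membrane lipids and so restrains Akt signalling. It had 51.2 and 52.9 CPM in KO, 54.1 and 77.1 CPM in het, and 96.3 and 98.1 CPM in wt. The 3 groups did not overlap, and het replicate 2 lay close to KO. Phlda3 fell 1.87-fold in KO against wt (log2 fold change -0.90 ± 0.16, edgeR adjusted p = 1.83e-04), a call kept in all 15 other settings with values from -1.43 to -0.54. In het against wt the value was -0.53 ± 0.17 (unadjusted p = 0.00567 and edgeR adjusted p = 0.318). In KO against het it was -0.37 ± 0.16 (edgeR adjusted p = 0.0935), and this value rested on the het libraries and the scaling. It passed the threshold without het replicate 2 (-0.56, adjusted p = 0.0193), and was -0.053 without het replicate 3 (adjusted p = 0.882), 0.0087 with library size only and 0.016 with the GC and length trends removed.

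Trp53inp1 (ENSMUSG00000028211, chromosome 4), a stress protein that promotes p53 phosphorylation and autophagy, had 21.9 and 13.7 CPM in KO, 14.2 and 15.7 CPM in het, and 22.3 and 20.9 CPM in wt. The KO libraries lay apart from each other and overlapped both other groups. The log2 fold change in KO against wt was -0.27 ± 0.28 (95% interval -0.84 to 0.31, edgeR adjusted p = 0.501).

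The 3 apoptotic genes were not called in any comparison as reported. Bax (ENSMUSG00000003873, chromosome 7), which forms pores in the outer mitochondrial membrane, had 105 and 111 CPM in KO, 89.0 and 103 CPM in het, and 107 and 116 CPM in wt. KO and wt overlapped, with a log2 fold change of -0.04 ± 0.13 (95% interval -0.32 to 0.23, edgeR adjusted p = 0.844). With the GC and length trends removed Bax was called higher in KO against wt (log2 fold change 0.38, edgeR adjusted p = 0.0291) and against het (0.65, edgeR adjusted p = 5.33e-04), and library size only gave a call against het (0.54, edgeR adjusted p = 0.00244). Bbc3 (ENSMUSG00000002083, chromosome 7), the BH3-only protein Puma, had 10.5 CPM in each KO library, 14.2 and 12.2 CPM in het, and 11.1 and 12.0 CPM in wt. Its log2 fold change in KO against wt was -0.13 ± 0.33 (95% interval -0.83 to 0.56, edgeR adjusted p = 0.801). Pmaip1 (ENSMUSG00000024521, chromosome 18), the BH3-only protein Noxa, rested on 26 and 15 counts in KO, 6 and 5 in het, and 3 and 4 in wt. KO had the most counts in the deepest libraries, and in CPM it had 3.38 and 2.54 in KO, 4.27 and 1.74 in het, and 1.28 and 2.53 in wt. A difference between KO and wt was not detectable at this depth (log2 fold change 0.70, 95% interval -0.94 to 2.35, edgeR adjusted p = 0.539).

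**Figure D2:**
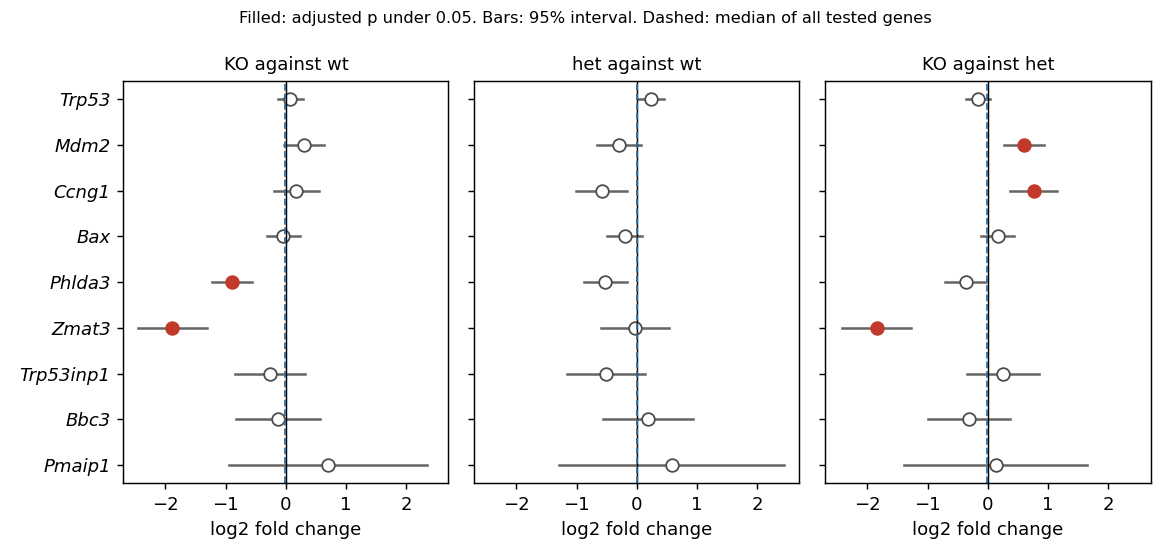
Log2 fold change (horizontal axes) of the 9 genes in KO against wt, het against wt and KO against het, with 95% intervals (bars), filled points for edgeR adjusted p under 0.05, and the median of all tested genes (dashed line). Zmat3 and Phlda3 are the filled points in KO against wt, none is filled in het against wt, and Mdm2, Ccng1 and Zmat3 are filled in KO against het.

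Loss of 1 Dll4 copy gave no call among the 9 genes by edgeR, DESeq2 or limma-voom, where edgeR called 0.173% of all tested genes (0.128% higher and 0.0457% lower in het). By edgeR 3 had an unadjusted p under 0.05 (Trp53 higher in het, Phlda3 and Ccng1 lower), by DESeq2 2 (1 gene had no adjusted p) and by limma-voom 3. The share of all tested genes with an unadjusted p under 0.05 was not counted, so an excess cannot be read from these counts. The median log2 fold change of the 9 was -0.20, against 0.01 for all tested genes. The het and wt libraries did not overlap in 7 genes, with het lower in 5, Mdm2, Ccng1, Bax, Phlda3 and Trp53inp1, and higher in Trp53 and Bbc3. Over all tested genes these shares were 18.8% lower and 19.2% higher. Near ties are included, with Bbc3 at 12.2 CPM in het replicate 3 against 12.0 CPM in wt replicate 5. Mdm2 was at 61.2 CPM in het replicate 2 against 62.1 CPM in wt replicate 4.

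Between KO and het, 3 of the 9 genes were called, Mdm2 and Ccng1 higher and Zmat3 lower, where 31.2% of all tested genes were called (13.9% higher and 17.2% lower). Without overlap, KO lay above het in 3 genes and below it in 4, against 31.4% and 33.0% of all tested genes. With library size only the calls were 3 higher and 1 lower, where 3930 of all 10952 tested genes were called higher and 1016 lower. This comparison shares its KO libraries with KO against wt and its het libraries with het against wt. Mdm2 stood at 82.2 ± 6.10 CPM in KO, 55.2 ± 8.51 CPM in het and 67.1 ± 7.12 CPM in wt, and Ccng1 at 71.1 ± 8.87, 41.6 ± 2.40 and 63.9 ± 17.1 CPM (SD, n = 2 each). In both genes het had the lowest mean and wt lay between, so the called difference joins a higher KO value and a lower het value, neither of which was called against wt.

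Levels can be compared between genes only per length, here as CPM per kilobase of annotated exons. In wt, Bax was the highest at 70.8, followed by Phlda3 at 62.3 and Trp53 at 60.5, then Ccng1 at 18.2 and Mdm2 at 13.2. Bbc3 at 5.45, Trp53inp1 at 3.33, Zmat3 at 2.75 and Pmaip1 at 0.698 were low. In KO the order was Bax at 68.6, Trp53 at 63.6, Phlda3 at 33.4, Ccng1 at 20.2, Mdm2 at 16.2, Bbc3 at 4.95, Trp53inp1 at 2.76, Pmaip1 at 1.08 and Zmat3 at 0.759. In wt the library values per kilobase of Phlda3 (61.8 and 62.9) and Trp53 (60.2 and 60.9) were nearest each other, and those of Bax were 67.6 and 73.9. Exons of all annotated transcripts enter these lengths, so the order is approximate.

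Over the 6 libraries and 5630 genes (mean log2 CPM 5 or more), the log2 levels most like those of Trp53 were Smyd2, Cenpa and Dmwd (Pearson's r = 0.994, 0.987 and 0.986), and those most like Mdm2 were Wbp1l, M6pr and Yipf6 (r = 0.982, 0.980 and 0.979). The 6 points fall into 3 groups, and the 2 KO points share the higher depth and the low Lars2 share. These r are the highest picked among 5630 genes, so their size alone does not show shared regulation.

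Among 42 other p53 target genes, 32 passed the filter, 2 rose and 4 fell in KO against wt, and the median log2 fold change was -0.01. The called share, 18.8% of those tested, was below the 32.0% of all genes. With library size only 9 were higher and 1 lower, where 3878 of all 10952 tested genes were called higher and 1034 lower. Cdkn1a, which encodes the cell cycle inhibitor p21 and is the standard p53 readout, had 80.5 and 86.5 CPM in KO, 74.8 and 81.0 CPM in het, and 89.9 and 104 CPM in wt. Both KO libraries were below both wt libraries, and the log2 fold change was -0.21 ± 0.14 (95% interval -0.51 to 0.08, edgeR adjusted p = 0.272). With library size only this value turned to 0.15, not called, and Cdkn1a was called higher in KO against het (0.47, edgeR adjusted p = 0.0106). Of the genes that rose, Xpc, a sensor of DNA lesions in nucleotide excision repair, stood at 30.0 ± 1.22 CPM in KO and 15.4 ± 0.592 CPM in wt (1.96-fold, edgeR adjusted p = 0.00453). Polk, a translesion DNA polymerase, stood at 39.3 ± 3.03 CPM in KO and 23.9 ± 1.10 CPM in wt (1.65-fold, edgeR adjusted p = 0.0157). Without wt replicate 4 neither passed (adjusted p = 0.0596 for Xpc and 0.118 for Polk), and Polk was also lost without KO replicate 1 (0.0947) and without wt replicate 5 (0.0666). When the libraries were thinned to equal totals both calls were lost (adjusted p = 0.193 for Xpc and 0.0585 for Polk), and with DESeq2 that of Polk (0.0941).

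Among the genes that fell, Tnfrsf10b, a death receptor, was 1.63-fold lower in KO, Fbxw7, a ubiquitin ligase subunit that marks Myc for degradation, 1.56-fold and Ei24 1.31-fold, with edgeR adjusted p between 0.0357 and 0.0498, and each of the 3 calls was lost in 8 of 15 other settings. Without wt replicate 4 no gene of the list was called. The count was 3 without KO replicate 1, 3 without KO replicate 2 and 2 without wt replicate 5. Sesn2, a stress-induced inhibitor of mTORC1, had 28.4 and 23.2 CPM in KO, 7.12 and 12.9 CPM in het, and 15.4 and 18.4 CPM in wt. KO was the highest group and het the lowest. Sesn2 rose in KO against het (2.42-fold, edgeR adjusted p = 0.00201), and its log2 fold change against wt was 0.63 ± 0.28 (edgeR adjusted p = 0.0867). Only with library size only was it called against wt (0.99, edgeR adjusted p = 0.00545). Gdf15, a secreted stress factor, had at most 5 counts in a library and was not tested.

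In het against wt none of the 32 tested targets was called by edgeR, DESeq2 or limma-voom, and 3, 1 and 2 had an unadjusted p under 0.05 (6 had no adjusted p in DESeq2). The share of all tested genes under this unadjusted threshold was not counted. The median of the targets was -0.16, and without overlap het was lower than wt in 13 targets and higher in 5. Over all tested genes the median was 0.01, and these shares were 18.8% lower and 19.2% higher. In KO against het 31.2% of all tested genes were called (13.9% higher and 17.2% lower), with a median of -0.02. Of the targets 3 rose and 3 fell, 18.8% of those tested, and their median was 0.15. With library size only 12 were higher and 2 lower, where 3930 of all 10952 tested genes were called higher and 1016 lower.

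**Figure D3:**
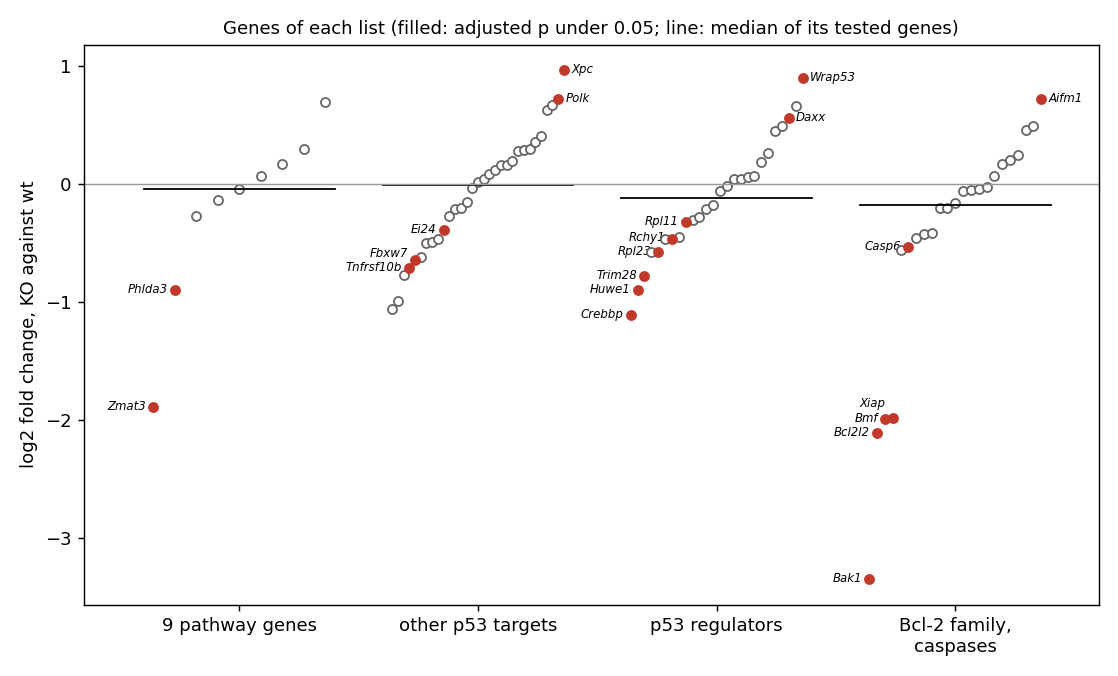
Log2 fold change in KO against wt (vertical axis) of genes of each list, ordered within a list, with called genes filled and named and the median of the list's tested genes as a line. The medians lie at -0.04, -0.01, -0.12 and -0.18, and Bak1 is the lowest point shown, at -3.35.

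Of 29 genes that regulate p53, 26 passed the filter. In KO against wt 32.0% of all tested genes were called (14.7% higher and 17.3% lower), with a median of -0.02. Of the regulators 2 rose and 6 fell (30.8%, median -0.12). With library size only 7 were higher and 3 lower, where 3878 of all 10952 tested genes were called higher and 1034 lower. Cdkn2a, which encodes the Mdm2 inhibitor Arf, the usual link from Myc to p53, had 0 counts in all 6 libraries. A count of 0 allows up to 3 counts in a library, that is 0.390 to 0.509 CPM in KO, 1.05 to 2.14 CPM in het and 1.28 to 1.90 CPM in wt (counting error only). Mdm4, an Mdm2 relative that blocks p53's activation domain, had 41.3 and 33.6 CPM in KO, 50.6 and 61.1 CPM in het, and 39.4 and 36.1 CPM in wt. Het was above the other groups, and Mdm4 fell in KO against het (log2 fold change -0.59 ± 0.18, edgeR adjusted p = 0.0168), a call lost in 6 of 15 other settings, among them without KO replicate 2 (adjusted p = 0.148) and without het replicate 3 (0.220). Against wt the KO value was -0.01 ± 0.19 (edgeR adjusted p = 0.969).

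Trim28, a co-repressor that acts with Mdm2, fell to 170 ± 10.5 CPM in KO, against 291 ± 1.96 CPM in wt (1.71-fold, edgeR adjusted p = 7.18e-06). Crebbp, an acetyltransferase coactivator of p53, fell to 61.1 ± 10.2 CPM in KO, against 131 ± 22.7 CPM in wt (2.15-fold, edgeR adjusted p = 2.75e-05). Both calls held in all 15 other settings. The ubiquitin ligase gene Huwe1 was 1.87-fold lower and Rchy1, another p53 ligase, 1.38-fold lower (edgeR adjusted p = 0.00315 and 0.0371). Huwe1 missed the threshold without wt replicate 4 (-0.55 on the log2 scale, adjusted p = 0.0870), when thinned (-0.70, 0.0557) and with the GC and length trends removed (-0.35, 0.0592), against -0.90 as reported, and Rchy1 was lost in 9 of 15 other settings. Rpl23 and Rpl11, ribosomal proteins that bind Mdm2 when ribosome production fails, were 1.49-fold and 1.25-fold lower in KO (edgeR adjusted p = 8.84e-05 and 0.0274). Neither was called with library size only, where the Rpl11 log2 fold change turned to 0.045. The Rpl11 call was lost in 8 of 15 other settings, including without KO replicate 1 (adjusted p = 0.194), KO replicate 2 (0.0708) or wt replicate 5 (0.328), and its log2 fold change was -0.012 with the GC and length trends removed. Both belong to a family with many processed copies that can share reads. Wrap53 and Daxx, an adaptor that stabilises Mdm2, were 1.86-fold and 1.47-fold higher in KO (edgeR adjusted p = 0.0291 and 0.0452). Wrap53 lost its call in 5 of 15 other settings and Daxx in 8. Both were lost with DESeq2, with limma-voom, when thinned, without KO replicate 2 (adjusted p = 0.160 for Wrap53 and 0.103 for Daxx) and without wt replicate 5 (0.232 and 0.105). Daxx was also lost without KO replicate 1 (0.130), without wt replicate 4 (0.222) and with the GC and length trends removed (0.0587). No regulator was called in het against wt by edgeR, DESeq2 or limma-voom, and 3, 2 and 2 had an unadjusted p under 0.05. The share of all tested genes under this unadjusted threshold was not counted. In KO against het 31.2% of all tested genes were called (13.9% higher and 17.2% lower). Of the regulators 1 rose and 7 fell (30.8%), and with library size only 4 were higher and 4 lower. That setting called 3930 of all 10952 tested genes higher and 1016 lower.

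Of 25 Bcl-2 family and caspase genes, 24 passed the filter. In KO against wt 32.0% of all tested genes were called (14.7% higher and 17.3% lower), with a median of -0.02. Of the listed genes 1 rose and 6 fell (29.2%, median -0.18). With library size only 7 were higher and 4 lower, where 3878 of all 10952 tested genes were called higher and 1034 lower. Bak1, the other pore-forming effector beside Bax, had 2.21 and 3.22 CPM in KO, 23.5 and 34.2 CPM in het, and 31.7 and 22.8 CPM in wt. It was 10.2-fold lower in KO than in wt (edgeR adjusted p = 1.78e-07), while Bax, given above, was not called. Ggnbp1 on the opposite strand overlaps 18.2% of Bak1's exon length, and strand was not recorded. Xiap, a caspase inhibitor, fell to 22.4 ± 2.43 CPM in KO, against 88.4 ± 0.287 CPM in wt (3.96-fold, edgeR adjusted p = 9.78e-09).

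Bmf, a BH3-only protein, was 3.97-fold lower in KO than in wt (edgeR adjusted p = 2.34e-04) and lies 0.776 Mb from Dll4. The calls of Bak1, Xiap and Bmf against wt held in all 15 other settings. Bcl2l2, an anti-apoptotic member that overlaps a read-through gene, was 4.31-fold lower on 10 and 11 KO counts, and the effector caspase gene Casp6 was 1.44-fold lower (edgeR adjusted p = 0.00535 and 0.0385). Bcl2l2 missed the threshold when thinned (adjusted p = 0.166) and without wt replicate 4 (0.0818), and Casp6 did so in 7 of 15 other settings, among them without any 1 of the KO or wt libraries. Aifm1, a mitochondrial flavoprotein, rose 1.65-fold (edgeR adjusted p = 0.00192), a call lost when thinned to equal totals (log2 fold change 0.57, adjusted p = 0.0944). Bcl2l11, the BH3-only protein Bim, had 39.4 and 43.8 CPM in KO, 30.6 and 37.3 CPM in het, and 44.9 and 39.9 CPM in wt. It was not called in any comparison as reported. Library size only gave a call in KO against het (log2 fold change 0.64, edgeR adjusted p = 0.00923). No gene of the list was called in het against wt by edgeR, DESeq2 or limma-voom, and 1, 0 and 1 had an unadjusted p under 0.05 (1 had no adjusted p in DESeq2). The share of all tested genes under this unadjusted threshold was not counted. In KO against het 31.2% of all tested genes were called (13.9% higher and 17.2% lower). Of the list 2 rose and 7 fell (37.5%), and with library size only 8 were higher and 4 lower. That setting called 3930 of all 10952 tested genes higher and 1016 lower.

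**Figure D4:**
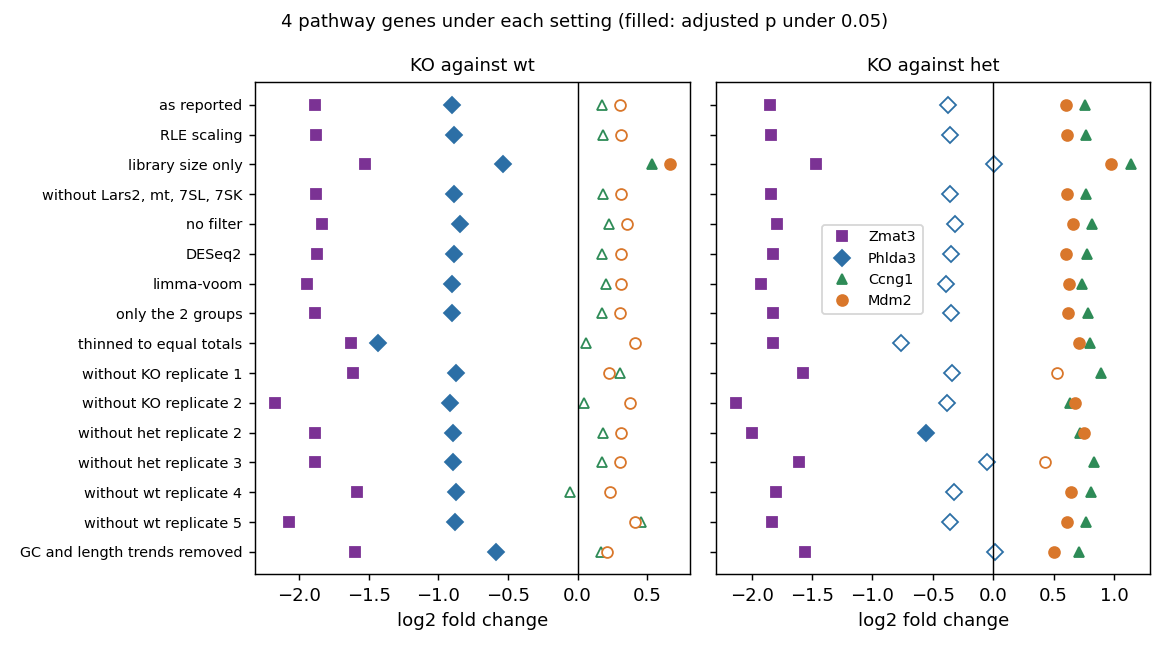
Log2 fold change (horizontal axes) of Zmat3, Phlda3, Ccng1 and Mdm2 under the reported and 15 other settings (rows), filled where the adjusted p was under 0.05. Zmat3 is filled in every row of both panels and Phlda3 in every row of KO against wt, while Mdm2 is open in KO against het without KO replicate 1 and without het replicate 3.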

How the data were processed

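Per the labels' protocols, cDNA came from the SMART-Seq v4 kit and sequencing libraries from Nextera XT. That chemistry keeps no strand. The table the authors deposited holds expected counts, RSEM's estimates of the reads of each gene, made with CASAVA, cutadapt and RSEM on GRCm38, per the submitters' processing notes (versions not given in the sources used here). Between 4.29% and 5.87% of a library's values were not whole (beyond 0.001), and all were rounded. RSEM divides reads between similar genes, so near-identical copies and overlapping genes carry uncertain values. Symbols, positions and exon lengths came from GENCODE M21 on GRCm38, which matched 97.9% of gene identifiers.

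In R 4.3.3, edgeR 4.0.16 was run on all 6 libraries with TMM factors, filterByExpr (minimum count 10), robust quasi-likelihood dispersion on 3 residual degrees of freedom, and two-sided F tests. Calls required p below 0.05 after Benjamini-Hochberg adjustment across 10952 genes. Every adjusted p is edgeR's unless another tool is named. SE and 95% intervals were derived from the F statistic, and CPM use TMM-scaled library sizes. The procedure was tested on simulated data with planted log2 changes of 1 and 2. In KO against wt it recovered 66 of 98 and 90 of 99 of these, and also called 33 genes simulated without a change. In het against wt it recovered 61 of 98 and 87 of 97, with 15 such false calls. In KO against het it recovered 63 of 99 and 91 of 98, with 24 false calls. A call can thus be false, and a gene without a call can still differ. For each comparison the false calls were a larger share of these calls than the adjusted threshold of 0.05 aims at. The planted changes were few, 98 and 99 among 10574 genes for KO against wt, where 32.0% of tested genes were called in the real libraries. Whether recovery and false calls are alike in the real libraries was not tested.

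Alternatives were RLE factors, library size only, removal of Lars2, mitochondrial, 7SL and 7SK genes, no filter, DESeq2 1.42.0, limma-voom (limma 3.58.1), only the 2 groups compared, thinning to equal totals, leaving out each library, and removal of GC and transcript-length trends, which was added after seeing the data and used 10903 genes. The 9 genes and all lists were chosen with earlier results of these data known. The genes named from each further list were those called in KO against wt, up to the 8 with the smallest adjusted p, those called in het against wt, and Cdkn1a, Gdf15, Sesn2, Mdm4, Cdkn2a and Bcl2l11 whether called or not. Of the genes so named, 2 are not reported here, and they stay in the counts and medians of their lists. Of the target genes, Btg2 is also on the dissociation list.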

Additional observations from a re-analysis of the deposited data

How the results depend on the processing

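No paired analysis was made. The labels do not say that replicate numbers mark pairs, and the groups compared share fewer than 2 of them. In KO against wt the count of called p53 pathway genes was 2 without any 1 library and 5 with library size only (3 higher and 2 lower). The counts over all genes were 3509, against 2128 when thinned and 2043 to 3815 without 1 library, the lowest without wt replicate 4. Library size only gave 3878 higher and 1034 lower, against 1610 and 1899. Other p53 targets numbered 6, against 10 with library size only (9 higher and 1 lower), 3 with no filter, 2 with DESeq2, 1 when thinned, and 0 to 6 without 1 library. Regulators numbered 8, against 4 with DESeq2, 3 when thinned, and 4 to 8 without 1 library (4 without KO replicate 2, 5 without wt replicate 5). Bcl-2 family and caspase genes numbered 7, against 11 with library size only (7 higher and 4 lower), 3 when thinned, and 4 to 7 without 1 library (4 without wt replicate 4).

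In het against wt the 19 calls over all genes (14 higher and 5 lower) became 150 with no filter, 11 with limma-voom, 7 when thinned, 39 (25 higher and 14 lower) with GC and length trends removed, and 2 to 76 without 1 library (2 without wt replicate 4, 76 without het replicate 3). Regulators had 1 call with no filter and 0 to 1 without 1 library. In KO against het the 3412 calls became 2055 when thinned and 2435 to 3206 without 1 library. With library size only 3930 were higher and 1016 lower, against 1524 and 1888. The pathway genes had 5 calls with GC and length trends removed (Trp53 and Zmat3 lower, Mdm2, Ccng1 and Bax higher) and 2 to 4 without 1 library. Other targets numbered 14 with library size only and 3 when thinned, and 3 to 6 without 1 library. Regulators numbered 5 with DESeq2, 5 when thinned, and 5 to 8 without 1 library (5 without KO replicate 2). Bcl-2 family and caspase genes numbered 3 when thinned and 5 to 8 without 1 library (5 without KO replicate 2 or het replicate 2). Where 1 library was left in a group, it was assumed to vary like the other groups.

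Bax turned to 0.38 in KO against wt with GC and length trends removed, and Rpl11 to 0.045 (KO against wt) and 0.064 (KO against het) with library size only. Of 1610 comparisons of a named gene with its reported value, 1459 kept their side of the threshold, 137 lost a call and 11 gained one. In the 3 above the sign turned and the value was called in 1 of the 2 settings. Other values, called in neither setting, also changed sign, among them those of Trp53, Ccng1 and Bax in KO against wt and Phlda3 in KO against het. The cause of these shifts was not tested, except that thinning and leaving out libraries remove data. Pmaip1, with 3 to 26 counts, is limited by depth.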
